A study of Homo sapiens with 49 samples.

Results

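The genes described here are the zinc finger genes with ZNF symbols that lie on chromosome 19. They were taken by symbol (ZNF followed only by a number) and by the RefSeq annotation. Only probe sets annotated to 1 gene were used, and of several for a gene the brightest on average across the 49 arrays was taken. This gave 208 genes of the 19775 measured. RefSeq lists 240 protein-coding genes of this kind on chromosome 19, of which 207 were measured, and the remaining member is annotated as a transcribed pseudogene. Another 217 ZNF genes lie on other chromosomes and served as the nearest comparison. The others were 1112 genes of chromosome 19 without a ZNF symbol and 6194 non-ZNF genes of any chromosome whose mean untreated level lay between 4.49 and 7.21 (log2 intensity), the middle of the members' own range.

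The arrays came from 6 established lines of diffuse large B-cell lymphoma: U2932, RIVA, OCI-Ly7, FARAGE, SU-DHL-5 and NU-DHL-1. Cells were either left without drug or exposed to doxorubicin, which slips between DNA bases and holds type II topoisomerase on the broken strand, at 2.5 or 0.00061 µg/mL. Untreated arrays covered 6 lines at 0, 2 and 12 h and 3 lines (OCI-Ly7, RIVA and U2932) at 48 h. The high dose covered 6 lines at 2 h, 5 lines at 12 h (all but SU-DHL-5) and 2 lines at 48 h (RIVA and U2932), and the low dose covered 6, 6 and 3 lines. Every dose and time had 1 array of a line. The lines were therefore the replicates, and each treated array was compared with its line's own untreated array at that time. No label names repeated cultures of a line, so that no p-value below measures the spread between cultures.

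Most zinc finger genes of chromosome 19 belong to tandem arrays that grew by duplication, and most of their proteins join a row of DNA-binding zinc fingers to a KRAB domain. The KRAB domain binds the corepressor TRIM28, which brings the histone methyltransferase SETDB1, heterochromatin proteins and deacetylases to the bound site. Many of these proteins silence transposable elements in this way. Which members encode a KRAB domain was not examined here.

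Levels are log2 intensities, and a difference of 1 on this scale is 2-fold. A gene was called when the adjusted p of limma's moderated test, with the line as a block and Benjamini-Hochberg adjustment over all 19775 genes, lay below 0.05. The B-cell markers MS4A1, CD79A, CD79B, PAX5 and CD22 had a median per array between 9.63 and 12.05, and the marker lists of T, myeloid, fibroblast, epithelial and erythroid cells had medians per array of at most 6.23. Single markers were brighter on some arrays, with EPCAM up to 9.77, CD247 up to 8.98, CD14 up to 8.77 and DCN up to 8.68, while CD79B went down to 7.07. Their part in the results was not tested. The deposited values had been brought to a common distribution between arrays. After the high dose the spiked-in poly-A control probe sets read higher, by a mean over lines of 0.30 ± 0.23 (SD, n = 6) at 2 h. That shift was 1.79 ± 0.528 (SD, n = 5) at 12 h, and 3.24 ± 0.315 (SD, n = 2) after 48 h. Scaled to these controls the median over all genes was -0.28, -1.59 and -3.07 in place of 0.02, 0.20 and 0.17, so every difference below is relative to the other genes of the same arrays. In bulk arrays less RNA per cell and fewer cells of a kind cannot be told apart.

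The promoters of 182 of the 208 members were matched in RefSeq (GRCh38.p14), as 300 bases from 250 before to 50 after the start. Those of 3 genes are shown because of the results below. ZNF586 and ZNF180 were lower at every time after the high dose, and ZNF77 had the largest rise at 48 h. Capitals mark the matches, on either strand, to 3 motifs: the ETS motif CCGGAAGT (ACTTCCGG on the other strand), the CCAAT box CCAAT and the GC box GGGCGG. For the last 2 the other strand reads ATTGG or, respectively, CCGCCC.
ZNF586 promoter, chr19:57769426-57769725, strand +: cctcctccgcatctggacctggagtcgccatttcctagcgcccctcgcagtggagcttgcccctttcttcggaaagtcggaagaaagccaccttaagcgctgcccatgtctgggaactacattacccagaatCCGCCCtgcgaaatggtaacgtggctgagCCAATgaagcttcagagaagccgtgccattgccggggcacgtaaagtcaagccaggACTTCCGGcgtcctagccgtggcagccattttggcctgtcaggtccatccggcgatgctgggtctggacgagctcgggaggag
ZNF180 promoter, chr19:44500473-44500772, strand -: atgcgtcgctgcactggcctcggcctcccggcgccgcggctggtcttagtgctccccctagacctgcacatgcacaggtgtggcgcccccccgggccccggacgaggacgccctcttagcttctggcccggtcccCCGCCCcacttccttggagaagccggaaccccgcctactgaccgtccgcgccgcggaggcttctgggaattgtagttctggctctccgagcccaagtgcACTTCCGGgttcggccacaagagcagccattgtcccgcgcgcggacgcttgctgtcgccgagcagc
ZNF77 promoter, chr19:2944922-2945221, strand -: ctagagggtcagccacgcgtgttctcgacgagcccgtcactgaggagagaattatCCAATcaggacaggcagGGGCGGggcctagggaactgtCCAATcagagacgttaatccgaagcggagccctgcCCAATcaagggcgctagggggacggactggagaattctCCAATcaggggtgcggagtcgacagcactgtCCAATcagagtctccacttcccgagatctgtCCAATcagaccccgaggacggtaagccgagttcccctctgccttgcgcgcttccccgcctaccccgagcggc
The ETS motif occurred in 38 of the 182 member promoters (20.9%), against 15.9% of the 176 promoters of ZNF genes elsewhere, 6.25% of the 15382 promoters of all genes on the array and 4.44% of all 27305 promoters in the table. CCAAT boxes were in 51.1% of member promoters, against 44.3% for ZNF genes elsewhere, 36.1% for array genes and 35.7% of all promoters. The TATA box TATAAA was in 2.20%, against 4.55%, 8.76% and 12.0% in the same order. The ZNF77 promoter holds 6 CCAAT boxes on 1 strand. The promoters of ZNF45 and ZNF347, also lower at every time, hold no ETS match, while that of ZNF567, lower at every time too, does. The promoter of ZNF550, which rose at 48 h, also holds an ETS match. Among the members called lower at 12 h, 17 of 66 promoters held the ETS motif (25.8%), against 21 of 116 among the others (18.1%), and 60.6% against 45.7% held a CCAAT box. These shares describe letters in a window and were not tested.

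At 12 h of the high dose, 71 members were lower (34.1%, against 14.7% of all genes) and 6 were higher (2.88%, against 18.2% of all genes). The median difference of the 208 members was -0.48, while that of all genes was 0.20 and that of the non-ZNF genes of like untreated level was 0.38. Of those 6194 genes, 453 were lower (7.31%) and 1574 higher (25.4%). ZNF genes on other chromosomes gave figures close to these, with a median of -0.41, 69 of 217 lower (31.8%) and 14 higher (6.45%). Other genes of chromosome 19 had a median of 0.33, with 89 of 1112 lower and 270 higher. The number of members called lower was 34 without RIVA, 36 without OCI-Ly7 and 47 without U2932. The shares of all genes called lower in those fits were 7.55%, 8.01% and 8.45%. The number called higher was 2 without RIVA (0.962%, against 4.41% of all genes) and 11 without NU-DHL-1 (5.29%, against 25.4%). On the poly-A scale 207 members were lower and 0 higher at 12 h, with a median of -2.26, against -1.59 for all genes.

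By line, the median member differed from its untreated array at 12 h by -0.62 in FARAGE, -0.04 in NU-DHL-1, -0.36 in OCI-Ly7, -0.75 in RIVA and -0.28 in U2932. It was below 0 in all 5 lines and closest to 0 in NU-DHL-1, where 21 members were at least 2-fold lower (10.1%, against 10.4% of all genes). In RIVA 91 were (43.8%, against 14.6%) and in FARAGE 87 (41.8%, against 17.0%). Set against the median of the non-ZNF genes of like level in the same line, the members were lower in all 5 lines, by a mean of -0.77 (SD 0.41, n = 5). Set against ZNF genes elsewhere, the mean was -0.04 (SD 0.121, n = 5), with RIVA at -0.25 and the other lines between -0.02 and 0.05. The mean gap to other ZNF genes was smaller than its SD between lines, and RIVA lay outside the range of the other 4.

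**Figure D1:**
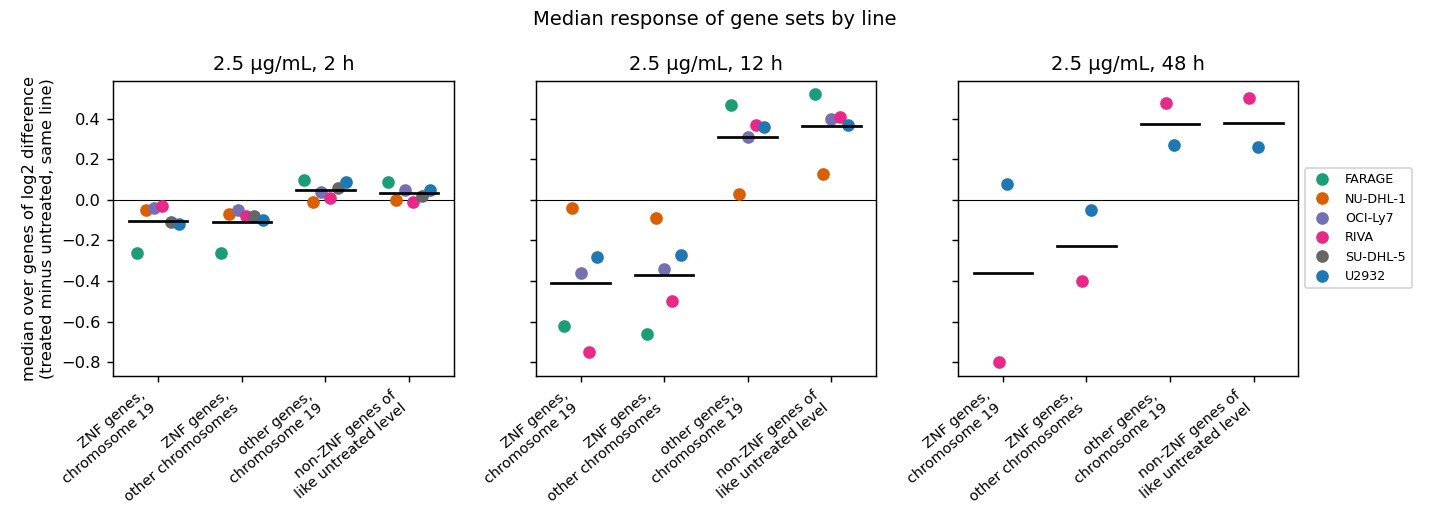
Median log2 difference (y axis) of each gene set in each line, at 2.5 µg/mL minus untreated, at 2, 12 and 48 h; points are lines and bars the mean over lines. At 12 h the medians of both ZNF sets lie below 0 in all 5 lines (members from -0.75 to -0.04), and those of non-ZNF genes of like level above 0 (mean 0.36).

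The deepest falls at 12 h among members that were lower in every line were those of ZNF45 and ZNF559. ZNF45 read 7.56, 7.60, 6.84, 9.18 and 8.02 in untreated FARAGE, NU-DHL-1, OCI-Ly7, RIVA and U2932, and 2.89, 6.50, 3.50, 5.07 and 4.76 after the drug in the same order. Every treated array of ZNF45 lay below every untreated one, with a difference of -3.30 ± 0.45 (SE, n = 5) and a limma adjusted p of 0.0031. ZNF559 read 6.72, 6.26, 8.01, 8.36 and 8.65 untreated and 3.37, 4.61, 3.91, 4.29 and 5.73 treated, again without overlap, a difference of -3.22 ± 0.35 (SE, n = 5; limma adjusted p = 0.00173). In both genes NU-DHL-1 moved least. Both probe sets of ZNF45 read lower (-3.30 and -2.47). ZNF559 was read by a single probe set, whose name ends in _s_at, a kind that can match near-identical genes.

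ZNF708 (-2.59 ± 0.44 SE), ZNF567 (-2.55 ± 0.31), ZNF586 (-2.52 ± 0.37) and ZNF529 (-2.37 ± 0.33) followed. For ZNF708 the only probe set is an _x_at one, also of the kind that can match near-identical genes. ZNF146, which encodes a protein made almost only of zinc fingers, read 10.59, 10.91, 10.72, 12.00 and 11.21 in the untreated lines in the same order. After 12 h it read 6.59, 9.61, 9.16, 9.08 and 9.40, so that all treated arrays lay below the untreated ones and FARAGE was the lowest, a difference of -2.32 ± 0.39 (SE, n = 5; limma adjusted p = 0.00577). ZNF180 (-2.05 ± 0.30) and ZNF766 (-2.04 ± 0.52) also fell in every line. ZNF766 kept its direction but lost its call without OCI-Ly7 (-1.99) and without RIVA (-2.06). ZNF551 read -1.97 ± 0.32 from its _s_at probe set, but 0.44 from the probe set chosen when such shared probe sets were left out.

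The 2 rises that met the rule for named genes at 12 h were those of ZNF446 and ZNF345. ZNF446 read 6.87, 6.45, 6.47, 6.87 and 7.10 untreated and 7.24, 7.34, 7.11, 7.75 and 8.16 treated, higher in each line and without overlap. Its difference was 0.77 ± 0.21 (SE, n = 5; limma adjusted p = 0.0282), it was not called without OCI-Ly7, RIVA or U2932 in turn, and it turned to -1.02 on the poly-A scale. ZNF345 rose by 0.75 ± 0.18 on its _x_at probe set, while its other probe set gave -1.06. On the poly-A scale ZNF345 read -1.04. The rule asks for a mean of at least 6.13 in the higher group only. ZNF345 met it through its treated arrays (mean 6.40, against 5.63 over the 6 untreated arrays at 12 h).

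Treated and untreated arrays did not overlap for 17 members that were lower at 12 h (8.17%, against 5.38% of all genes) and for 5 that were higher (2.40%, against 8.79%). The 5 were ZNF446, ZNF461, ZNF528, ZNF578 and ZNF835, listed here because their arrays did not overlap. ZNF genes elsewhere had 15.7% lower without overlap. At 2 h no member's arrays stood apart in this way (0.0506% of all genes lower and 0.121% higher). At 48 h, with 2 arrays on each side, 53 members were lower without overlap (25.5%, against 20.4% of all genes) and 32 higher (15.4%, against 34.7%).

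Members with a higher untreated level had larger falls. Across the 208 members Spearman's rho between untreated level and difference was -0.44 at 12 h, as a description across genes that share arrays, and it was -0.49 over the ZNF genes elsewhere and -0.37 over all genes. Below a level of 4, 1 of 37 members was lower at 12 h (2.70%, against 6.45% of ZNF genes elsewhere and 0.217% of non-ZNF genes). In the same bin 2 were higher (5.41%, against 9.68% and 20.4%). From 4 to 5, 2 of 32 were lower (6.25%, against 15.0% of ZNF genes elsewhere and 1.22% of non-ZNF genes), with a median of 0.16. From 5 to 6, 13 of 29 were lower (44.8%, against 12.5% and 4.28%), with a median of -0.75. From 6 to 7, 26 of 49 were lower (53.1%, against 36.4% and 13.9%), with a median of -0.88. In the bins from 5 to 7 the ZNF genes elsewhere had medians of -0.01 and -0.37, and non-ZNF genes 0.44 and 0.16. Above 7 the members and the other ZNF genes had close medians, of -0.85 and -0.99 from 7 to 8. From 8 upwards these medians were -1.07 and -1.04. From 7 to 8, 18 of 36 members were lower, against 48.8% of ZNF genes elsewhere and 27.9% of non-ZNF genes. From 8 upwards 11 of 25 members were lower, against 43.6% and 33.0%. In both bins 0 members were higher. The medians of non-ZNF genes there were -0.29 and -0.39, so bright genes without a ZNF symbol were lower too. Levels of different probe sets carry their own affinities, so the bins order probe sets, not amounts of RNA.

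**Figure D2:**
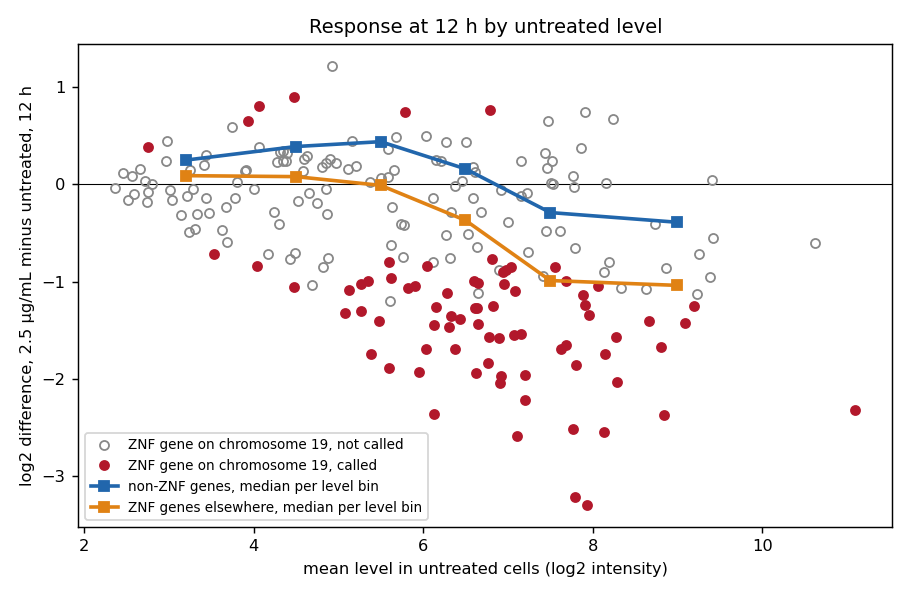
Log2 difference at 12 h of 2.5 µg/mL (y axis) against mean untreated log2 intensity (x axis) for the 208 members, filled where called; squares are medians per level bin of non-ZNF genes and of ZNF genes elsewhere, drawn inside each bin. The 71 filled points below 0 lie mostly above a level of 5, under both lines between 5 and 7.

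Each member was also set against the median of non-ZNF genes within the same 0.5-wide step of untreated level. At 12 h 171 of 208 members (82.2%) lay below that median and the median gap was -0.57, against 72.4% and -0.37 for ZNF genes elsewhere. At 2 h the gaps were -0.11 and -0.10, and at 48 h -0.39 and -0.25. Gene span bore little relation to the 12 h difference among members (rho = -0.12, n = 208), and the median span was 22966 bases, against 23544 for ZNF genes elsewhere and 13129 for other genes of chromosome 19.

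At 2 h of the high dose 28 members were already lower (13.5%, against 6.38% of all genes) and 3 were higher (1.44%, against 4.03%). The median member stood at -0.09, the median gene at 0.02 and the median non-ZNF gene of like level at 0.04. Among ZNF genes elsewhere 53 of 217 were lower (24.4%) and 4 higher, with a median of -0.08. FARAGE had the lowest median over members, -0.26, and the other lines lay between -0.12 and -0.03. In FARAGE 14 members were at least 2-fold lower (6.73%, against 1.25% of all genes), and in each other line at most 2. Leaving out U2932 gave 17 members lower (8.17%, against 4.40% of all genes) and 1 higher. Leaving out FARAGE gave 26 lower (12.5%, against 5.19%) and 5 higher, and leaving out NU-DHL-1 or SU-DHL-5 gave 23 lower (11.1%, against 5.10% and 5.18%) and 2 higher. The count at 2 h also moved with the fit: 18 members were lower without the variance trend, and 1 was lower and 0 higher when every array entered 1 fit. Shares of all genes in those fits are not given here. On the poly-A scale, which shifts every gene, 135 were lower and 0 higher, with a median of -0.39 against -0.28 for all genes.

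ZNF567 had the largest fall at 2 h. Its untreated arrays ran from 7.21 to 9.99 with a median of 8.06, and its treated arrays from 5.35 to 9.43 with a median of 7.31. The groups overlapped because the lines differ, but ZNF567 was lower in each of the 6 lines, by -0.88 ± 0.14 (SE; limma adjusted p = 0.0018), most in FARAGE (-1.86). ZNF180 (-0.79 ± 0.13), ZNF136 (-0.77 ± 0.12), ZNF14 (-0.67 ± 0.13) and ZNF559 (-0.62 ± 0.07) fell in all 6 lines as well. ZNF45 (-0.52 ± 0.10) and ZNF473 (-0.50 ± 0.08) were next, the latter encoding a factor of histone pre-mRNA processing. ZNF134, ZNF586 and ZNF671 each fell by 0.49. Other, dimmer probe sets of ZNF567 read -0.55, -0.78 and -0.02 at 2 h. A dimmer probe set of ZNF180 read -0.22 at 2 h, -0.39 at 12 h and -0.44 at 48 h.

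The 3 members higher at 2 h were ZNF653 (0.41 ± 0.10 SE), ZNF506 (0.40 ± 0.09) and ZNF580 (0.29 ± 0.07), each in all 6 lines, and ZNF580 turned to -0.01 on the poly-A scale. ZNF653 lost its call without NU-DHL-1, SU-DHL-5 or U2932, and ZNF580 without U2932. The level of 6.13 asked of named genes was reached by ZNF653 only after the drug (mean 6.17, against 5.76 untreated). For ZNF506 another probe set of the same brightness (6.54, against 6.51) read -1.12 at 2 h and -3.17 at 12 h, where the probe set used read 0.44. A probe set maps to part of a transcript, and which transcripts of ZNF506 each one reads was not examined.

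Of the 28 members lower at 2 h, 21 were also lower at 12 h, which is 75% of the first list and 29.6% of the second. These comparisons use different untreated arrays of the same lines. The difference at 12 h minus that at 2 h was tested on each line's own values over 5 lines. By this test 51 members fell further (24.5%, against 12.5% of all genes) and 2 moved upwards (0.962%, against 9.30%), with a median of -0.35. Without RIVA 12 members fell further (5.77%, against 5.16% of all genes), a share near that of all genes. Without OCI-Ly7 there were 17 (8.17%, against 6.03%) and without U2932 29 (13.9%, against 6.88%). Without NU-DHL-1 6 members moved upwards (2.88%, against 13.9% of all genes). ZNF45 (-2.76), ZNF559 (-2.58) and ZNF146 (-2.25) had the largest further falls. ZNF146 was close to its untreated level at 2 h (-0.06 ± 0.05 SE) and ZNF431 read 0.23 ± 0.08 there, before -1.84 ± 0.37 at 12 h.

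At 48 h of the high dose only RIVA and U2932 were measured, so the fit had 1 residual degree of freedom among samples and its standard errors rest mainly on variance borrowed from all genes. There 15 members were lower (7.21%, against 8.28% of all genes) and 6 higher (2.88%, against 5.66%). Without the variance trend 0 members were called in either direction. Scaling to the poly-A controls gave 204 lower and 0 higher, and scaling to the hybridization controls 104 lower and 0 higher. These scalings shift every gene, with medians over all genes of -3.07 and -1.28, so such counts are not particular to the members. On the deposited scale the share called lower is near that of all genes. By the fold alone, 52 members (25% of them) were at least 2-fold lower on the mean of both lines, against 16.8% of all genes. The median member stood at -0.25, as did the median ZNF gene elsewhere, with all genes at 0.17. The lines parted: the median member was at -0.80 in RIVA and 0.08 in U2932. At least 2-fold lower were 98 members in RIVA (47.1%, against 21.2% of all genes) and 9 in U2932 (4.33%, against 11.9%). ZNF genes elsewhere were at -0.40 in RIVA and -0.05 in U2932.

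Of the 15 members lower at 48 h, 14 were also lower at 12 h. ZNF45, ZNF180, ZNF347, ZNF559, ZNF567, ZNF571 and ZNF586 were lower at all 3 times. ZNF45 read 9.02 and 7.72 in untreated RIVA and U2932 at 48 h and 4.44 and 5.76 in treated ones, a difference of -3.27 ± 0.62 (SE, n = 2; limma adjusted p = 0.00732). ZNF586 read 7.88 and 8.12 against 3.49 and 6.49 (-3.01 ± 0.62), and ZNF431 7.62 and 5.77 against 3.76 and 5.03 (-2.30 ± 0.60). The fall was larger in RIVA for each of these 3.

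ZNF77 had the largest rise of any member at 48 h. It read 4.03 in untreated RIVA and 4.38 in untreated U2932, and 6.51 and 7.80 after the drug, a difference of 2.95 ± 0.44 (SE, n = 2; limma adjusted p = 0.00263) that turned to -0.29 on the poly-A scale. All 3 probe sets of ZNF77 pointed up on the deposited scale, the other 2 by 1.30 and 0.72. At 12 h ZNF77 moved with the line, from 4.33 to 7.92 in NU-DHL-1 and from 6.83 to 5.65 in OCI-Ly7, and it was not called. ZNF155 (2.11 ± 0.39), ZNF211 (2.01 ± 0.52) and ZNF550 (1.70 ± 0.50) also rose, and each turned below 0 on the poly-A scale. ZNF155 was dim without the drug, at most 4.41 on the untreated arrays at 48 h, and read 6.18 and 6.28 after it. In RIVA and U2932, ZNF77 and ZNF155 reached the level of 6.13 asked of named genes only after the drug.

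ZNF91, known for repressing retrotransposons, gave opposite readings from 2 probe sets. The brighter one read 10.25 in untreated RIVA and 12.72 in treated RIVA at 48 h, and 7.63 and 9.54 in U2932, a difference of 2.19 ± 0.48 (SE, n = 2; limma adjusted p = 0.0123) that was -1.05 on the poly-A scale. Its other bright probe set read -2.94 at 48 h, and -2.71 at 12 h where the first read 0.67. The mean over all probe sets of ZNF91 was -0.04 at 48 h. The direction for ZNF91 thus depends on the probe set.

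Such disagreement was checked for the 28 members with several probe sets above the median level. At 12 h all bright probe sets were lower for 21 of them, all higher for 1, and of mixed sign for 6. With dim probe sets included, of the 44 members called at 12 h that have several probe sets, 23 had at least 1 of the other sign, and at 2 h 8 of 18 did. Among bright probe sets alone, those of ZNF91 and ZNF506 lay at least 2 log2 units apart at 12 h. Counting dim ones, other members did so too, among them ZNF709 (-2.36 and 0.95) and ZNF567 (-2.55 and 0.42). In all, 73 members were measured by probe sets whose name ends in _s_at, _x_at or _a_at, which can match several transcripts or near-identical genes, so that signal of close paralogs can mix. With these left out, 18 members were lower at 2 h in place of 28. Members without another probe set then dropped out unmeasured, ZNF136 and ZNF559 among those called, so the 18 is over fewer members.

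**Figure D3:**
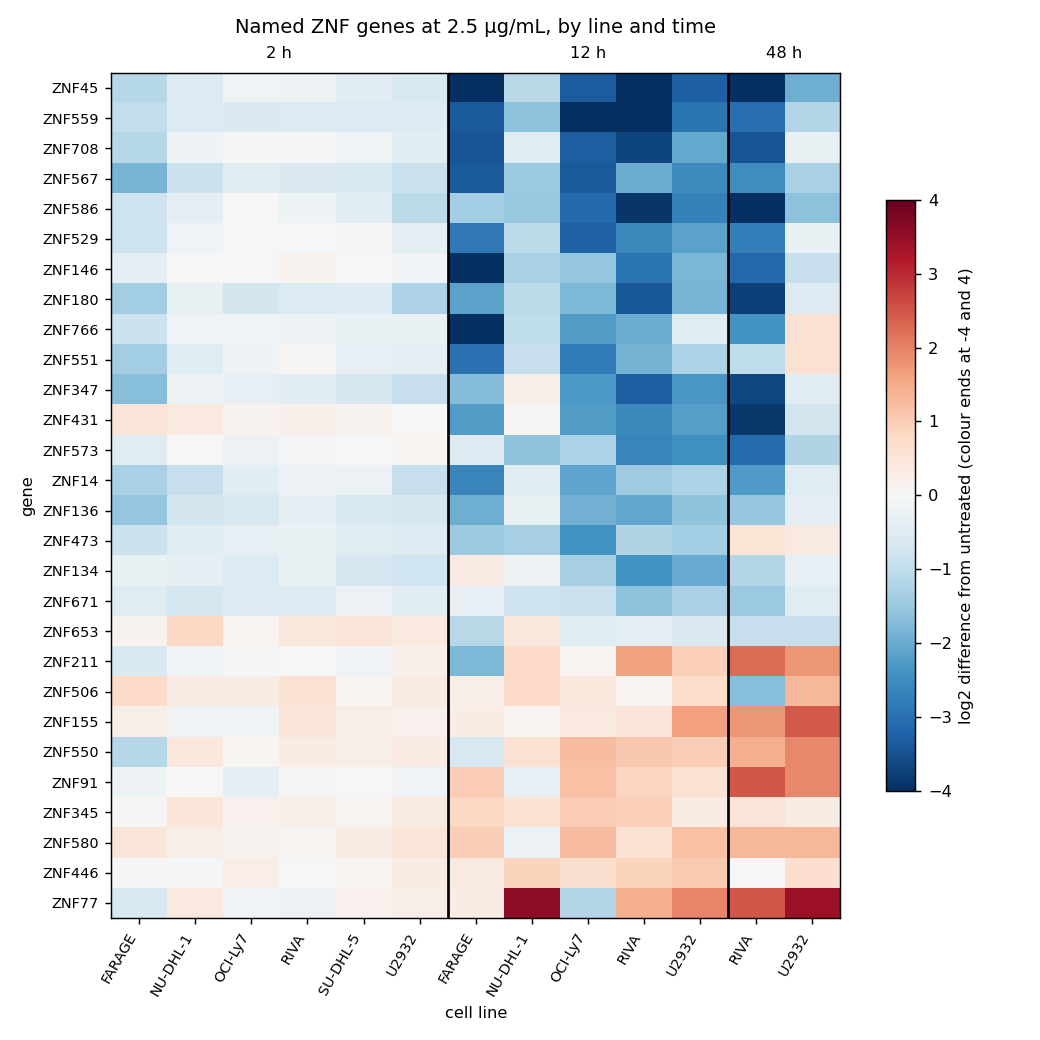
Log2 difference from untreated at 2.5 µg/mL (colour, ending at -4 and 4) for the named members, listed down, in each line, across, at 2, 12 and 48 h, ordered by their mean at 12 h. ZNF45 and ZNF559 at the top fell in all 5 lines at 12 h, and ZNF77 at the bottom rose in NU-DHL-1 (from 4.33 to 7.92) and fell in OCI-Ly7.

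Members known for a role of their own were followed whatever their result. ZNF93, a retrotransposon repressor like ZNF91, read -0.20 ± 0.07, -0.48 ± 0.31 and 0.10 ± 0.70 (SE) at 2, 12 and 48 h and was not called. ZNF274, which binds the ends of other ZNF genes and recruits SETDB1, read -0.13, -1.08 ± 0.55 and 0.04, also not called, with 12 h differences from -3.69 in FARAGE to 0.77 in NU-DHL-1. ZNF350, a repressor that partners BRCA1, fell at 12 h (-0.99 ± 0.30; limma adjusted p = 0.0367), but not in fits without FARAGE, OCI-Ly7, RIVA or U2932. ZNF43 (-0.85 ± 0.27; limma adjusted p = 0.0445) lost its call in the same 4 fits. ZNF331 (-0.51 ± 0.26), which is imprinted, and ZNF224 (-0.14 ± 0.29) were not called at 12 h. Another probe set of ZNF331, nearly as bright (6.20, against 6.53), read 0.11 at 12 h and 1.62 at 48 h. Dimmer probe sets of ZNF224 read from -0.20 to 0.56 at 12 h, so the direction differed between probe sets for both genes.

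The pattern most like that of ZNF45, by Pearson's r over the 49 arrays after each line's mean was removed, was that of ZNF708, ZNF146, ZNF529 and ZNF559 (r = 0.96 each) and ZNF226 (r = 0.95). These r are descriptions over arrays that share lines and the high-dose fall, with differences at 12 h from -3.22 (ZNF559) to -1.54 (ZNF226). Between lines, the 12 h differences of the 208 members ranked most alike in RIVA and U2932 (Spearman's rho = 0.78 across genes) and least in FARAGE and NU-DHL-1 (0.24).

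At the low dose no member was called at 2, 12 or 48 h, nor was any other gene by limma (0% of all genes in each). The medians of the members were -0.01, -0.02 and 0.00. At an unadjusted p under 0.05 there were 12, 16 and 7 members (5.77%, 7.69% and 3.37%), against 4.09%, 7.49% and 7.41% of all genes. On the poly-A scale 30 members were called higher at 12 h, with a median of 0.12, so that the 0 at that time depends on the scale. That scale shifts every gene, since the poly-A controls there differed from untreated by a mean of -0.14 over 6 lines. Untreated cells at 12 h against 0 h gave no member called (0.0152% of all genes, 3 genes) and 19 at an unadjusted p under 0.05, and at 48 h against 0 h none called (0% of all genes) and 17. Their medians were -0.01 and 0.00.

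Before any drug the lines differed in these genes. By limma's F test over the 6 lines, which takes the arrays of a line at several times as its repeats, 189 of 208 members differed (90.9%, against 71.3% of all genes and 88.9% of ZNF genes elsewhere). The range of the line means was at least 3 for 37 members (17.8%, against 9.12% of all genes, 14.2% of non-ZNF genes of like level and 7.83% of ZNF genes elsewhere). The median range was 1.75 over members and 0.76 over all genes. RIVA held the highest line mean for 126 members (60.6%), against 13.1% of all genes, 24.0% of other chromosome 19 genes and 26.3% of ZNF genes elsewhere. Under the other scalings the share of members was 52.9% (median-centred), 62.5% (poly-A) and 66.8% (hybridization controls). NU-DHL-1 held the lowest mean for 68 members (32.7%, against 14.1% of all genes). The median member level was 6.98 in RIVA and between 5.66 and 6.23 in the other 5 lines.

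ZNF829 was the most uneven of these toward RIVA. Its untreated mean was 7.30 ± 0.096 (SD, n = 4 arrays) in RIVA, 3.41 ± 0.14 (n = 4) in U2932 and between 2.58 and 2.77 in the other 4 lines. ZNF329 had the widest range, from 2.97 ± 0.27 (SD, n = 4) in OCI-Ly7 and 3.16 ± 0.12 (n = 3) in FARAGE to 8.28 ± 0.11 (n = 4) in U2932 and 8.84 ± 0.16 (n = 4) in RIVA. ZNF544 split the same way, with 4.08 ± 0.20 in FARAGE and 4.09 ± 0.39 in OCI-Ly7 against 9.38 ± 0.21 in U2932 and 9.56 ± 0.20 in RIVA, where the last pair differ by less than their SD. ZNF570 was lowest in NU-DHL-1 (2.40 ± 0.27, n = 3) and highest in RIVA (7.80 ± 0.058, n = 4), with the other lines between 5.22 and 6.25. ZNF569 followed the same order at its ends, from 2.88 ± 0.18 in NU-DHL-1 to 8.05 ± 0.21 in RIVA. ZNF439 was the one of the 10 with RIVA not highest: it was lowest in U2932 (3.67 ± 0.14, n = 4) and highest in OCI-Ly7 (8.32 ± 0.30, n = 4).

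**Figure D4:**
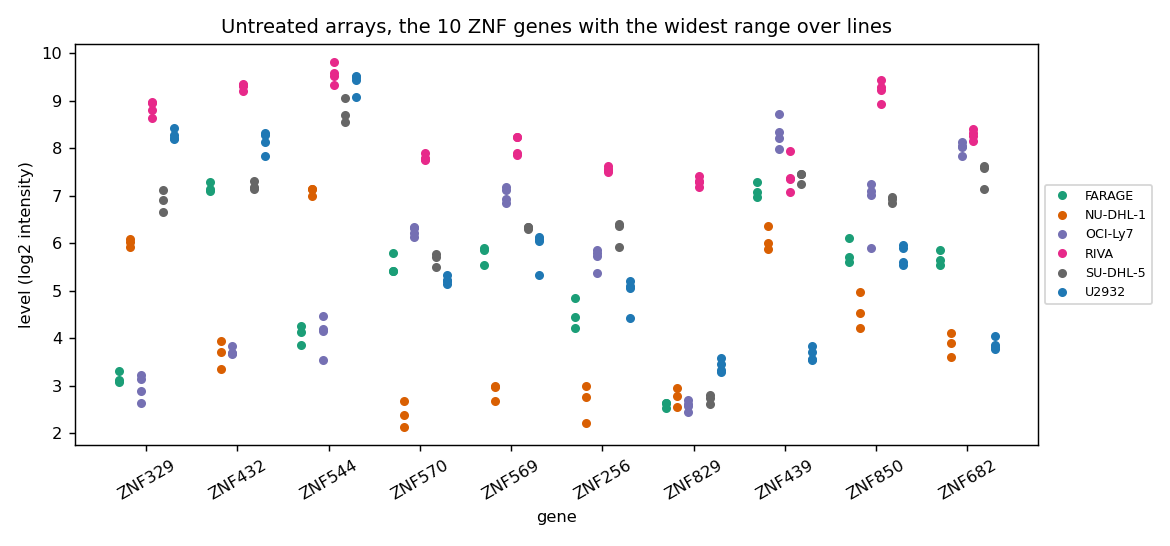
Log2 intensity (y axis) of the 10 members with the widest range over lines, 1 point per untreated array, coloured by line. RIVA is highest for 9 of the 10 and ZNF829 is bright in RIVA alone (7.30 against at most 3.41 in the other line means).

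The members with high levels in RIVA were also those that fell most there. From the untreated arrays at 0 and 2 h only, which the later comparisons do not use, 82 members were at least 1 higher in RIVA than the median of the other lines. Their median difference in RIVA was -1.62 at 12 h and -1.67 at 48 h, against -0.33 and -0.12 for the other 126 members. In U2932 the same 82 members had medians of -0.51 and 0.09, and the 126 of -0.22 and 0.07. The same order held in the other sets. The 26 ZNF genes elsewhere of that kind had medians of -1.14 and -1.57 in RIVA, against -0.33 and -0.28 for the other 191. The 623 non-ZNF genes of like level had medians of -0.15 and -0.55, against 0.43 and 0.54 for the other 5571. ZNF829, at 7.19 in untreated RIVA at 12 h, read 4.88 after the drug and 5.02 at 48 h, still above its level in the other lines.

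Members were also taken in their order along the chromosome. A run was continued while at most 5 other protein-coding genes lay between neighbours, and 6 runs of at least 8 members held 157 of the 208. In the run from ZNF565 to ZNF573, which includes ZNF146, ZNF529, ZNF567 and ZNF829, RIVA was the highest line for 21 of 22 members, with a median excess of 1.82 over the median of the other lines. All 5 other genes measured between them (ZFP14, ZFP82, ZNF585A, ZNF585B and ZFP30, also zinc finger genes) were highest in RIVA. In the run from ZNF653 to ZNF791, RIVA was the highest for 1 of 20 members, with a median excess of 0.02. The other 4 runs lay between, with 65.4% to 78.9% highest in RIVA, and members outside the runs at 41.2%.

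At 12 h the run from ZNF565 to ZNF573 had the lowest median of the 6, -0.99, with 12 of 22 members lower and 2 higher. The run from ZNF283 to ZNF180 had a median of 0.09 with 6 of 19 lower, ZNF45 and ZNF180 among them, and its median untreated level was the lowest of the 6 (4.59, against 5.71 in the former). The run from ZNF653 to ZNF791 fell by 0.74 at the median, with line medians from -1.92 to -0.01. At 48 h the runs' medians in RIVA lay between -1.76 and -0.56 and in U2932 between -0.16 and 0.24. Members of a run can share sequence, so that they are not independent of each other.

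**Figure D5:**
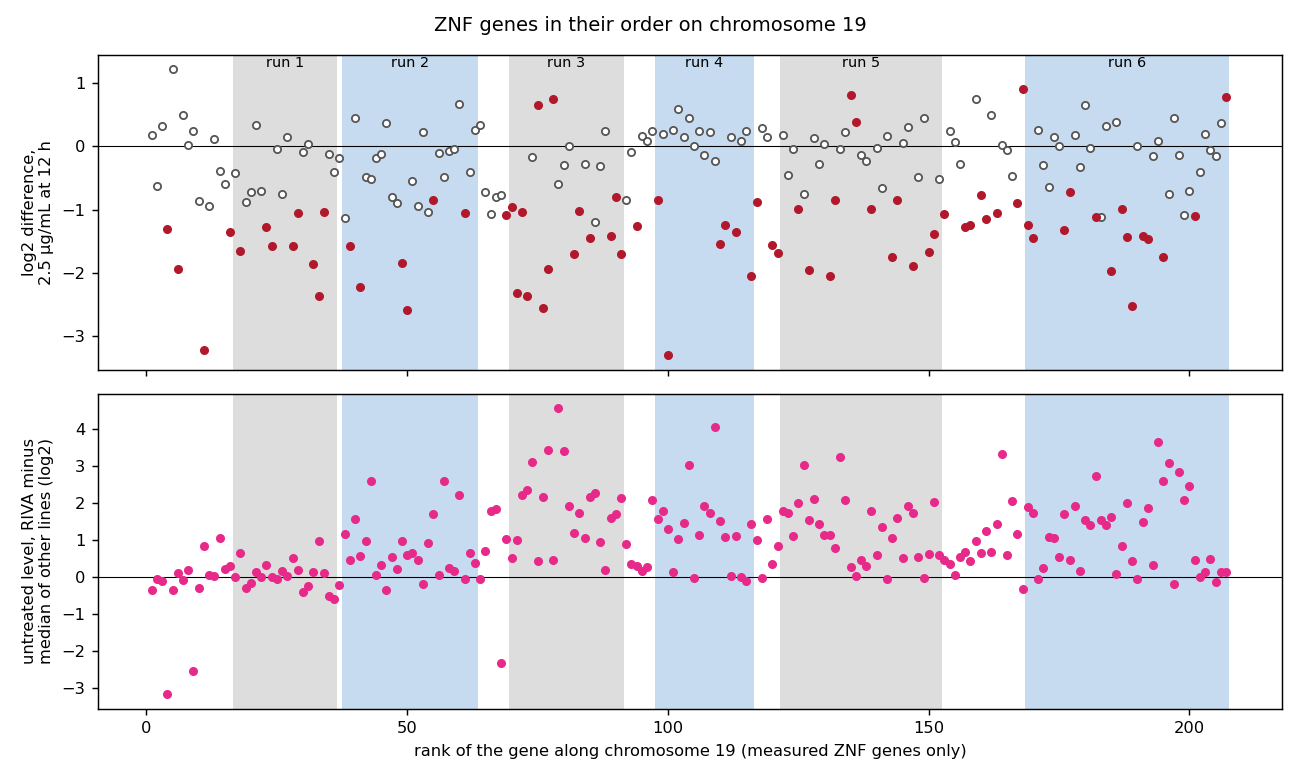
The members by rank along chromosome 19 (x axis), with their log2 difference at 12 h of 2.5 µg/mL (top, filled where called) and their untreated level in RIVA minus the median of the other lines (bottom, log2). Shading marks the 6 runs; run 3 (ZNF565 to ZNF573) holds the lowest median at 12 h (-0.99) and 21 of 22 members highest in RIVA, and run 1 (ZNF653 to ZNF791) 1 of 20.

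The cofactors through which KRAB proteins act were followed as a list of 35 genes, all measured. At 2 h 2 were higher (5.71%, against 4.03% of all genes) and 4 lower (11.4%, against 6.38%). At 12 h 2 were higher (5.71%, against 18.2%) and 10 lower (28.6%, against 14.7%), and at 48 h 0 were higher (5.66% of all genes were) and 5 lower (14.3%, against 8.28%). The medians were 0.01, -0.27 and -0.49. Most of the listed genes had an untreated level above 8. Of the 5635 non-ZNF genes of that level, 13.9% were lower at 2 h, 33.0% at 12 h and 19.1% at 48 h. In the same order 506, 507 and 169 of them were higher, and their medians were 0.01, -0.39 and -0.66. The shares of the list called lower thus did not exceed those of non-ZNF genes that bright. TRIM28, the corepressor that binds the KRAB domain, rose by 0.24 ± 0.04 (SE) at 2 h in all 6 lines (limma adjusted p = 0.00303), but stood at -0.06 on the poly-A scale, and at 12 h it was not called (0.26 ± 0.20). SETDB1, the methyltransferase TRIM28 recruits, fell by 0.26 ± 0.07 at 2 h and by 1.68 ± 0.22 at 12 h (limma adjusted p = 0.04 and 0.00286). EHMT1, another histone methyltransferase, fell at all 3 times (-0.38 ± 0.05, -2.09 ± 0.23 and -2.76 ± 0.55). TASOR, a scaffold of the HUSH silencing complex, and ATF7IP, the partner of SETDB1, each read -0.27 at 2 h and were called. SMARCAD1, a chromatin remodeller, and MBD2, which binds methylated DNA, fell by 2.74 ± 0.32 and 1.86 ± 0.22 at 12 h and stayed called at 48 h (-2.64 and -1.33). PPHLN1, the other HUSH subunit named here, fell by 2.53 ± 0.55 at 48 h.

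A further 12 zinc finger genes of chromosome 19 carry other symbols (ZFP, ZSCAN, ZIM, ZIK and PEG3). Of these 1 was lower at 2 h (8.33%, against 6.38% of all genes). At 12 h 3 were lower (25%, against 14.7%) and 1 higher (8.33%, against 18.2%), and at 48 h 1 was lower (8.33%, against 8.28%) and 2 higher (16.7%, against 5.66%). The medians were 0.03, -0.18 and -0.10. ZFP82, which lies in the run from ZNF565 to ZNF573, was lower at all 3 times (-0.51, -2.33 and -2.02).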

How the data were processed

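RNA was extracted with Trizol, labelled as biotin cRNA with the GeneChip 3' IVT Express kit and hybridized to 49 Affymetrix arrays, per the labels' protocols. The authors deposited log2 intensities for 54675 probe sets. RMA, the affy package and R 3.0.2 are named in the submitters' processing notes. RMA gives arrays a common distribution, so a change in total RNA per cell is not seen. The number of arrays limits the precision.

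Of the probe sets, 41091 list 1 gene, and the brightest over all arrays stood for each of 19775 genes. The genes described and the lists were chosen with earlier results of these data known. Differences were tested with limma (version 3.58.1, under R 4.3.3), on the groups compared, with the line as a fixed block (the labels name the line, which pairs the arrays) and a variance trend. The p-values were adjusted by Benjamini-Hochberg over all genes, called below 0.05. Named genes were the 10 largest falls and rises per comparison (8 at 48 h) among members called, alike in direction in every line and with a mean in the higher group of at least 6.13, the 10 widest ranges between lines, and 8 members chosen by role. A rise can meet the level of 6.13 on its treated arrays alone. From the cofactor list the 4 smallest adjusted p per high-dose comparison were named. A further 46 ZNF probe sets that list several genes were left out. Alternatives were other scalings, probe set choices, filters and fits, and each line left out. The array files name no genome build, and coordinates are given only for RefSeq promoters of GRCh38.p14.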

Additional observations from a re-analysis of the deposited data

Results flagged for a closer look

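Of 66 checks for a line far from the others, 7 met the criterion (Dixon's 95% critical value). A rate of about 1 in 20 by chance would hold for independent, unselected checks. These share arrays and cover members named partly from the same results, so the 7 cannot be set against that rate. At 2 h of the high dose 5 of them were in FARAGE: ZNF567 (-1.86), ZNF136 (-1.55), ZNF274 (-0.62), ZNF559 (-0.98) and ZNF93 (-0.52) were lower there than in any other line. The change from 2 to 12 h was smallest for ZNF431 in NU-DHL-1 (-0.35). The untreated level of ZNF829 stood apart in RIVA (7.30).

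The effects of the high dose at 2 and 12 h were compared by a test of the difference itself. By it 51 members were lower at 12 h (24.5%, against 12.5% of all genes) and 2 higher (0.962%, against 9.30%). The named ones were ZNF45 (-2.76), ZNF559 (-2.58), ZNF146 (-2.25), ZNF708 (-2.20), ZNF529 (-2.10), ZNF431 (-2.09), ZNF586 (-2.02), ZNF850 (-1.91), ZNF614 (-1.79) and ZNF766 (-1.72), each lower in all 5 lines. ZNF586 and ZNF766 were not called without OCI-Ly7 or without RIVA, and ZNF614 not without FARAGE, OCI-Ly7 or RIVA. In the fit without RIVA 12 members were lower at 12 h (5.77%), a share near that of all genes (5.16%).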

How the results depend on the processing

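Scaling to the poly-A controls gave 135 members lower, 0 higher and a median of -0.39 at 2 h, 207, 0 and -2.26 at 12 h, 204, 0 and -3.49 at 48 h, and 203, 0 and -1.81 for the change from 2 to 12 h. It also gave 30 higher at the low dose at 12 h (median 0.12; -0.08 at 48 h), and, in untreated cells, 4 higher at 12 h (median 0.23) and 48 at 48 h (median 0.53). On it, called rises took values below 0 for ZNF580 at 2 h (-0.01), ZNF345 (-1.04) and ZNF446 (-1.02) at 12 h, and ZNF77 (-0.29), ZNF91 (-1.05), ZNF155 (-1.12), ZNF211 (-1.23) and ZNF550 (-1.54) at 48 h. Positive values that had not been called also took values below 0, for ZNF91 at 12 h (-1.12) and for ZNF93 (-3.14), ZNF274 (-3.20) and ZNF331 (-2.82) at 48 h. Hybridization controls gave 139 lower, 0 higher and -1.13 at 12 h, 104, 0 and -1.70 at 48 h, 124, 0 and -1.0 for the change, and medians of -0.06 at the low dose at 48 h and -0.07 in untreated cells at 12 h. Both control scalings shift every gene of an array alike, so these counts are not particular to the members. Medians over all genes at 12 and 48 h were -1.59 and -3.07 with poly-A controls, and -0.46 and -1.28 with hybridization controls. Centring on the median gene gave 38 lower at 48 h. Genes above the median gene alone gave 2 higher and a median of -0.90 at 12 h, -0.76 for the change, and 108 members differing between untreated lines, since fewer genes are tested. The mean over probe sets gave 10 higher at 12 h, 5 lower at 48 h and 6 higher for the change, and turned ZNF506 at 2 h (-0.20), ZNF345 at 12 h (-0.16) and ZNF91 at 48 h (-0.04). Without _s_at, _x_at and _a_at probe sets 18 were lower at 2 h, 2 higher at 12 h and 0 higher for the change, with ZNF345 at -1.06 and ZNF551 at 0.44 at 12 h. These counts are over fewer members, since those without another probe set were not measured. Without the variance trend 18 were lower at 2 h, 4 higher for the change, and 0 called either way at 48 h. The counts from centring on the median gene onwards have no share of all genes beside them, so they describe the setting and not the members alone.

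Leaving the line, which pairs the arrays, out as a replicate block gave 0 higher and 0 lower at 2 h and at 48 h, and 26 lower at 12 h. It ended the call of 34 of the named genes' values, and poly-A scaling reversed 12, gained 15 and ended 2. One joint fit of all arrays gave 0 higher and 1 lower at 2 h, 26 higher at 12 h, 79 lower at 48 h beside 30 higher, and 2 in either direction in untreated cells at 48 h. The shares of all genes called without the block and in the joint fit are not given here, so these counts are not particular to the members. Leaving out each line gave 17 to 27 lower, 1 to 5 higher and medians of -0.10 to -0.06 at 2 h, 34 to 82, 2 to 11 and -0.60 to -0.32 at 12 h, and 12 to 68, 1 to 6 and -0.44 to -0.22 for the change. Of all genes, 4.40% to 5.88% were lower and 2.52% to 3.24% higher at 2 h in these fits. At 12 h these shares were 7.55% to 16.7% and 4.41% to 25.4%, and for the change 5.16% to 15.0% and 1.83% to 13.9%. At the low dose it gave medians of -0.02 to 0.00, -0.03 to -0.01 and -0.03 to 0.02, with 0 called at 2 and 12 h and 0 to 1 in each direction at 48 h. In untreated cells it gave 0 called, with medians of -0.03 to -0.00 at 12 h and -0.06 to 0.05 at 48 h. At 48 h of the high dose no line could be left out, since 1 would remain. Of the named genes' values under alternatives, 701 kept direction and side of the threshold, 108 lost a call, 26 gained one and 17 reversed. Except where fewer genes were tested, the cause was not tested.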
